A study of Mus musculus with 12 samples.

Results

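The unfolded protein response genes described here are 36 mouse genes chosen by symbol, of 53700 gene identifiers in the table of read counts. All 36 symbols matched an identifier, all 36 had reads in every library, and all 36 passed the filter on low counts, which left 15014 genes in the fit of libraries and 15401 in the fit of mouse totals. The RNA came from intrahepatic cholangiocyte organoids, which are bile duct epithelial cells grown as hollow balls in a basement membrane gel. From each of 6 livers, 1 culture was started from the hilar region, where the large bile ducts lie, and 1 from the periphery. The Ndr mice (1219, 1220 and 1224) were homozygous for the Ndr allele of Jag1 (Jag1 Ndr/Ndr), and Jag1 encodes a Notch ligand needed to form bile ducts. The WT mice (1221, 1223 and 1225) carried wild-type Jag1. The 4 groups were therefore Ndr hilar, Ndr peripheral, WT hilar and WT peripheral organoids, with 3 libraries each from 3 separate mice. All cultures were untreated and at passage 5, so they show epithelium expanded outside the liver, without its bile, blood supply or neighbouring cells. The mice's age and sex were not analysed here.

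The endoplasmic reticulum (ER) folds secreted and membrane proteins. When unfolded proteins build up there, 3 sensors in its membrane respond: Ern1 (IRE1) splices the Xbp1 messenger RNA, Atf6 is cut to release a transcription factor, and Eif2ak3 (PERK) slows translation while favouring that of Atf4. Their targets are chaperones and disulfide isomerases that fold proteins, the ER-associated degradation (ERAD) machinery that removes misfolded ones, and the Atf4 and Ddit3 programme that handles amino acid supply and cell death. Eif2ak3 is 1 of several kinases that slow translation while favouring that of Atf4, so Atf4 targets also respond to stresses outside the ER. Cholangiocytes secrete mucins, bicarbonate and matrix proteins and are exposed to bile acids.

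Libraries held 6708822 to 16030880 reads assigned to genes. Values are CPM, read counts scaled to a common depth after TMM, a normalization that assumes most genes do not differ. Of the 12 cholangiocyte markers, 11 passed the filter on low counts, among them Krt19 (201 to 2977 CPM), Epcam (348.5 to 1274 CPM) and Sox9 (75.3 to 243 CPM), while Sctr reached at most 0.12 CPM. Of the marker lists of other cells, the 8 endothelial genes summed to at most 0.53 CPM and the 6 plasma cell genes to at most 0.954 CPM in any library. The 8 immune genes summed to 10.1 to 40.3 CPM, nearly all from Csf1r and Cd68, with Adgre1 and Clec4f at 0. The 10 fibroblast and stellate genes summed to 0.377 to 28.7 CPM, nearly all from Reln, with Dcn and Lum at 0. The 10 hepatocyte genes summed to 155 to 322 CPM, mostly Hnf4a, with Cps1 at 0. In bulk RNA, fewer cells of a type and less RNA per cell cannot be told apart.

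Derivation dates were uneven between genotypes. WT mice 1221 and 1223 shared a date, Ndr mice 1219 and 1220 each had a date of their own, and Ndr mouse 1224 shared its date with WT mouse 1225. For the genotype comparisons, the difference between mice 1224 and 1225 is therefore the only value within a date, and it rests on 1 mouse per genotype.

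The promoters of several of these genes carry the ER stress response element (ERSE), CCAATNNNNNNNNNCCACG, which is bound by Atf6 together with the factor NF-Y. In RefSeq promoters (GRCm38.p6, 250 bases before to 50 after the start, either strand), 9 of the 31 genes with an entry held an ERSE (29.0%), against 37 of 27025 genes overall (0.137%). They were Hspa5, Hsp90b1, Dnajc3, Creld2, Calr, Canx, Pdia6, Derl3 and Syvn1. The core of the amino acid response element, TGATGNAA, which is bound by Atf4 with a C/EBP partner, occurred in 4 of the 31 (12.9%), namely Asns, Chac1, Herpud1 and Trib3, against 4.51% of all genes. The Xbp1-type core TGACGTG occurred in Hspa5 alone (3.23%, against 2.22% of all genes). The shorter CCACG, which is part of every ERSE, occurred in 24 of the 31 (77.4%) and in 35.5% of all genes. The stretches below come from genes that the comparisons give with a log2 difference and SE and that hold an ERSE or the Atf4-type core before the start site. Canx, which holds an ERSE and is named without such a value, is not shown. They run 5′ to 3′ along the gene's own strand, end before the start site, and show in capitals each match to the ERSE, the Atf4-type core or TGACGTG, on either strand. CCACG outside an ERSE is left in lower case. A match describes letters in this window and not a bound site.
Hspa5, chr2:34771903-34772073, plus strand: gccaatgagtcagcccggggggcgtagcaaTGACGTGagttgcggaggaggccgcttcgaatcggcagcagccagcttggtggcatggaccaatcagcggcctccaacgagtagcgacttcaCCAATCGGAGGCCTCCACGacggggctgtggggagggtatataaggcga
Hsp90b1, chr10:86705503-86705686, minus strand: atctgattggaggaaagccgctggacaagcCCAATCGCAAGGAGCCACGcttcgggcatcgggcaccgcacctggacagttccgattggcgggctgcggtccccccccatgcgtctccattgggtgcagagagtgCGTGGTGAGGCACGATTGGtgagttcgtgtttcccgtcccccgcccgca
Dnajc3, chr14:118937797-118937875, plus strand: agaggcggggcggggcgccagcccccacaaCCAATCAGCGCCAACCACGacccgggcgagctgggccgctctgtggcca
Creld2, chr15:88819490-88819568, plus strand: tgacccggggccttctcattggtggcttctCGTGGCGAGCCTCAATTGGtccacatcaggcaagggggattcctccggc
Chac1, chr2:119351019-119351086, plus strand: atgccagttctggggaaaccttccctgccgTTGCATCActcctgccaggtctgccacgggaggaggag
Asns, chr6:7693210-7693262, minus strand: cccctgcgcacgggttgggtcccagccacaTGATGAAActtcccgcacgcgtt
Herpud1, chr8:94386287-94386354, plus strand: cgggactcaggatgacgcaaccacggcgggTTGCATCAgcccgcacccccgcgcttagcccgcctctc

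Hspa5 (BiP), the main ER chaperone, has an ERSE close to the start and the TGACGTG core further upstream, and Hsp90b1 (GRP94), its partner for late folding, has 2 ERSEs in opposite orientation. Chac1, which degrades glutathione, and Asns, which makes asparagine, hold the Atf4-type core, as does Herpud1, which organizes ERAD complexes.

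Per kilobase of exon, the folding machinery was the most abundant of these messages. P4hb, a disulfide isomerase and collagen hydroxylase subunit, averaged 531 CPM per kb over the 12 libraries, Pdia3 339, Calr 289 and Hspa5 286 CPM per kb. Xbp1 averaged 181 and Atf4 102 CPM per kb, while the sensors Ern1, Atf6 and Eif2ak3 lay between 11.0 and 12.9 CPM per kb. The lowest was Derl3, an ERAD channel protein of secretory cells, at 0.575 CPM per kb.

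The genes also differed in how much they varied between libraries. The widest spreads, apart from that of Derl3, belonged to the Atf4 targets Trib3, Chac1 and Asns. The highest library exceeded the lowest 43.5-fold for Trib3, a pseudokinase that restrains the response, 17.6-fold for Chac1 and 6.46-fold for Asns. The lowest library for Trib3 and Chac1, Ndr hilar 1220, held 11 and 14 reads of them. Ppp1r15a, also an Atf4 target, spread only 2.82-fold. Canx, a membrane lectin chaperone, and Pdia4, a disulfide isomerase, spread 1.39-fold and 1.40-fold. Derl3 spread 40.6-fold, but on levels of 0.126 to 5.1 CPM. The libraries at the extremes were not those of 1 genotype. The Ndr hilar library of mouse 1224 was the highest of 12 for 9 genes and so was the WT hilar library of mouse 1225, whereas the Ndr hilar library of mouse 1220 was the lowest for 12 genes and the Ndr peripheral library of mouse 1219 for 11. By comparison, those libraries were highest for 3.6% and 12.9%, and lowest for 18.4% and 5.61%, of all genes tested.

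**Figure D1:**
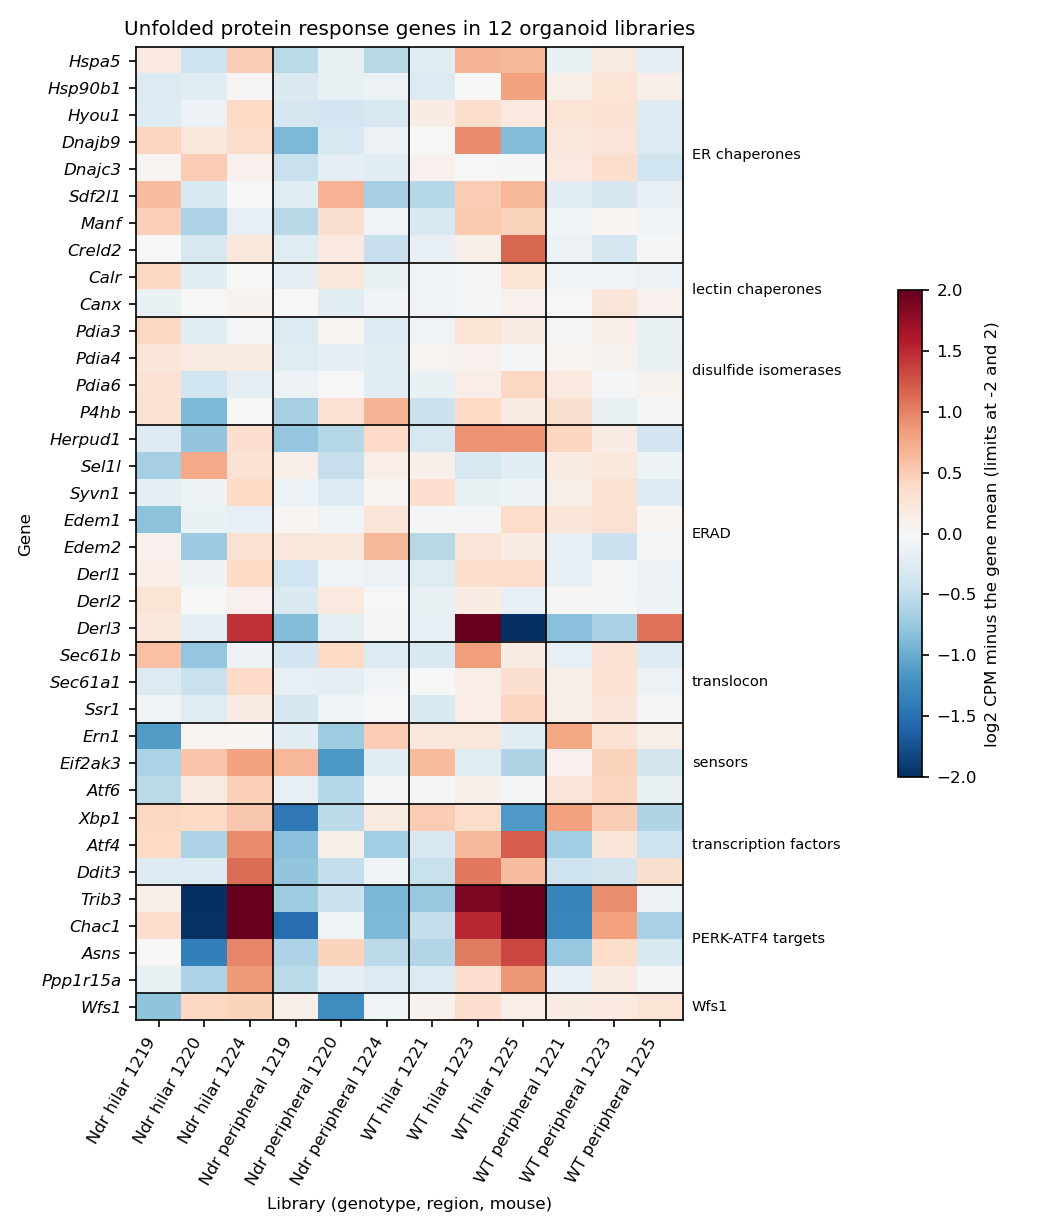
Log2 CPM of the 36 genes minus each gene's mean over the 12 libraries, with genes in rows by role and libraries in columns by group. The Atf4 targets Trib3, Chac1 and Asns are high in Ndr hilar 1224 and low in Ndr hilar 1220, and Derl3, a gene of few reads, differs most between WT hilar libraries.

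Averaged over the 36 genes on the centred log2 scale, the mean level was 0.03 ± 0.37 in Ndr hilar, -0.23 ± 0.14 in Ndr peripheral, 0.20 ± 0.30 in WT hilar and -0.0021 ± 0.14 in WT peripheral organoids (SD, n = 3 each). The libraries of Ndr hilar organoids lay at -0.02, -0.32 and 0.42, those of Ndr peripheral at -0.38, -0.16 and -0.13, those of WT hilar at -0.14, 0.44 and 0.30, and those of WT peripheral at -0.05, 0.15 and -0.11. Ranges overlapped between the hilar groups, whereas each Ndr peripheral library lay below each WT peripheral one. The nearest peripheral libraries were those of Ndr mouse 1224 at -0.13 and WT mouse 1225 at -0.11, which share a derivation date.

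**Figure D2:**
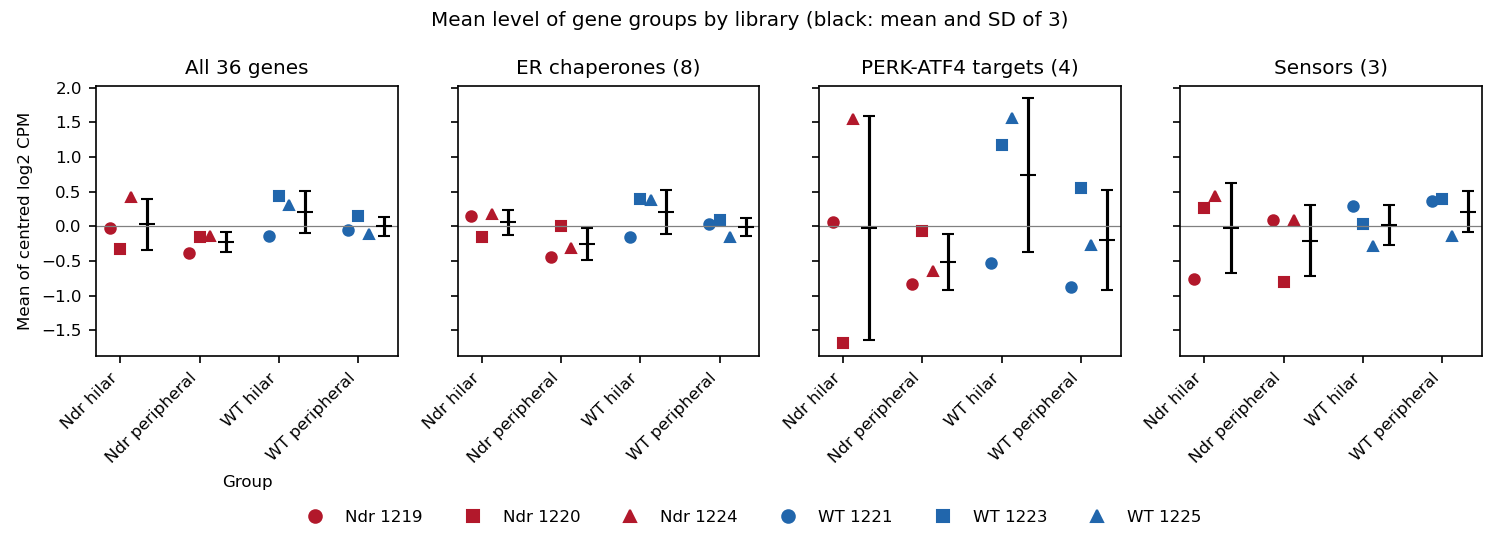
Mean centred log2 CPM of all 36 genes, of the 8 ER chaperones, of the 4 PERK-ATF4 targets and of the 3 sensors, by group; symbols are libraries, coloured by genotype, and black bars are the mean and SD of 3. The Atf4 targets range from -1.69 to 1.55 within Ndr hilar organoids, more than any difference between group means.

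The first comparison asks whether the Jag1 genotype goes with a different level of these genes, with both cultures of a mouse summed so that each mouse counts once. Reads were summed without balancing depth, so the deeper culture of a mouse weighed more. That was the peripheral culture in Ndr mice 1220 and 1224 and WT mice 1223 and 1225. It was the hilar culture in Ndr mouse 1219 and WT mouse 1221. The part of this weighting in the genotype estimates was not tested. Ndr mice had lower estimates than WT mice for 30 of the 36 genes (83.3%), against 50.7% of all genes, with a median log2 difference of -0.21 over the 36 and -0.0045 over all genes. No single gene passed the test: edgeR called 0 of the 36 and 0.0% of all genes at an adjusted p of 0.05, and 0 of the 36 had an unadjusted p under 0.05 in either direction, against 2.93% of all genes for lower and 2.49% for higher. DESeq2 also called 0 of the 36 (0.749% of all genes), and limma-voom called 0 of the 36 here and in each comparison that follows. Within the shared derivation date, mouse 1224 lay below mouse 1225 for 18 of the 36 genes, with a median log2 difference of -0.0030, so the lower estimates did not hold in that pair. Some lists outside the pathway lay the same way in the mouse totals: 18 of 20 proliferation genes were below 0 (median log2 difference -0.21), as were 14 of 15 hypoxia and glycolysis genes (median -0.22). The cytosolic heat shock list did not, with 5 of 12 genes below 0 (median 0.08). The highest proliferation sum, 3180 CPM, was that of the hilar library of WT mouse 1225, against 771 and 521 CPM in WT hilar 1221 and 1223. How far the proliferation estimates rest on that library was not tested. The part of these lists in the values of the 36 was not tested either, and nothing here shows the lower estimates to be particular to the 36.

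Among the chaperones, Hspa5 stood at 1049, 947 and 1147 CPM in Ndr mice, against 1033, 1548 and 1400 CPM in WT mice. The ranges overlapped through WT mouse 1221, and the log2 difference was -0.34 ± 0.21 (SE; edgeR adjusted p = 0.908), or -0.29 within the date. Hyou1, an ER chaperone that exchanges the nucleotide of Hspa5, stood at 215, 218 and 274 CPM in Ndr mice, against 312, 336 and 265.5 CPM in WT mice. Its log2 difference was -0.37 ± 0.16 (SE; edgeR adjusted p = 0.903), the smallest p of the 36 genes, but within the date it was 0.05. Hsp90b1 stood at 675, 723.5 and 812 CPM in Ndr mice, against 794, 939 and 1171 CPM in WT mice. Only Ndr mouse 1224 reached the WT range, and the log2 difference was -0.39 ± 0.20 (SE; edgeR adjusted p = 0.903), or -0.53 within the date. Of the 8 ER chaperones, 7 had estimates below 0.

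Edem1, a mannosidase that marks glycoproteins for ERAD, was the only gene of the 36 whose mice did not overlap between genotypes in the lower direction (5.78% of all genes); none did so in the higher direction (5.49%). It stood at 66.2, 78.3 and 91.9 CPM in Ndr mice, against 92.7, 96.0 and 99.6 CPM in WT mice, with a gap of under 1 CPM between the nearest mice. Its log2 difference was -0.29 ± 0.15 (SE; edgeR adjusted p = 0.903), and -0.12 within the date. Herpud1 stood at 76.5, 67.5 and 141 CPM in Ndr mice, against 113, 157 and 140 CPM in WT mice. Ndr mouse 1224 was well apart from the other Ndr mice, and the log2 difference was -0.52 ± 0.29 (SE; edgeR adjusted p = 0.903), against 0.01 within the date. Of the 8 ERAD genes, 5 had estimates below 0. Sec61a1, the pore of the translocon that brings proteins into the ER, had a log2 difference of -0.26 ± 0.17 (SE), and 0.03 within the date.

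Among the sensors, Ern1 stood at 59.3, 71.4 and 117 CPM in Ndr mice, against 131, 111 and 92.1 CPM in WT mice, a log2 difference of -0.43 ± 0.27 (SE; edgeR adjusted p = 0.915). Within the date the sign was the opposite, 0.35. All 3 sensors, all 3 transcription factors and all 4 Atf4 targets had estimates below 0, with Eif2ak3 at -0.03 ± 0.25 (SE). Within the date, Eif2ak3 (0.76), Atf6 (0.29), Xbp1 (1.14), Ddit3 (0.07) and Trib3 (0.10) lay above 0. Atf4 (-0.35), Chac1 (-0.24), Asns (-0.39) and Ppp1r15a (-0.16) lay below 0 within the date. Wfs1, an ER membrane protein that restrains Atf6, stood at 30.6, 30.1 and 43.1 CPM in Ndr mice, against 41.7, 46.0 and 44.9 CPM in WT mice, with a log2 difference of -0.35 ± 0.17 (SE; edgeR adjusted p = 0.903), and -0.06 within the date.

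The transcription factors overlapped widely. Atf4 stood at 202, 191 and 252.5 CPM in Ndr mice, against 158, 291.5 and 321 CPM in WT mice (log2 difference -0.26 ± 0.27, SE; edgeR adjusted p = 0.92). Ddit3 (CHOP), which promotes cell death, stood at 6.72, 7.17 and 14.1 CPM in Ndr mice, against 7.22, 12.95 and 13.4 CPM in WT mice (log2 difference -0.26 ± 0.38, SE; edgeR adjusted p = 0.93). Xbp1 stood at 456, 498 and 677 CPM in Ndr mice, against 839, 719 and 306.5 CPM in WT mice. WT mouse 1225 alone lay below every Ndr mouse, and the log2 difference was -0.19 ± 0.37 (SE; edgeR adjusted p = 0.95), against 1.14 within the date. These are total Xbp1 counts, which do not separate the spliced form that Ern1 makes.

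**Figure D3:**
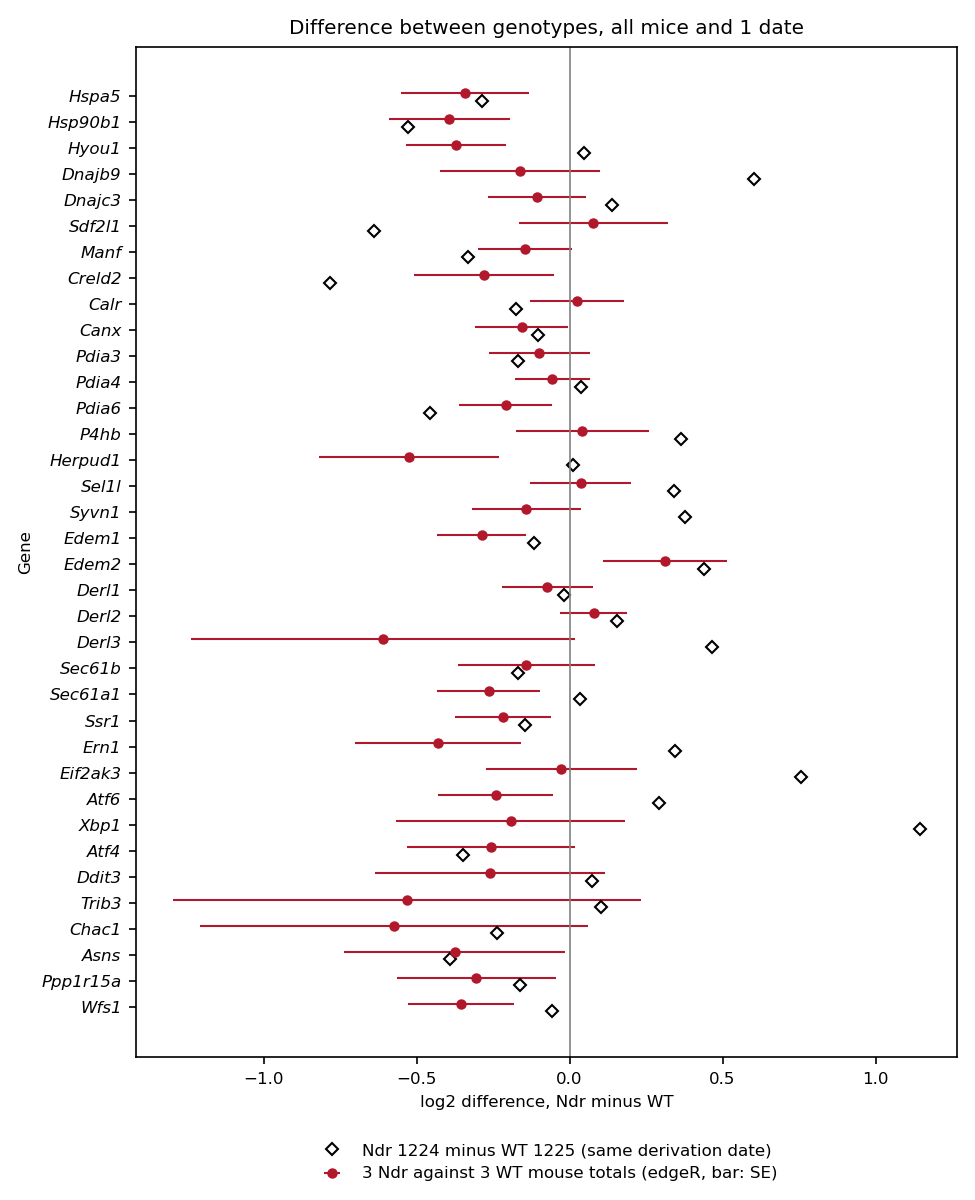
Log2 difference of each of the 36 genes, Ndr minus WT: red points are the edgeR estimate from 3 Ndr and 3 WT mouse totals with its SE, open diamonds the difference between Ndr mouse 1224 and WT mouse 1225, which share a derivation date. Of the red points 30 lie below 0, and of the diamonds 18.

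In hilar organoids, 26 of the 36 genes had lower estimates in Ndr than in WT cultures (72.2%, against 50.5% of all genes), with a median log2 difference of -0.19. Without the Ndr hilar library of mouse 1220, that count was 16 and the median 0.02. edgeR called 0 of the 36 (0.0% of all genes), 0 had an unadjusted p under 0.05 (3.68% of all genes for lower, 2.86% for higher), and DESeq2 called 0 (0.287%). Edem1 stood at 48.5, 78.2 and 76.7 CPM in Ndr hilar organoids, against 84.5, 83.7 and 110 CPM in WT hilar ones, with no overlap (4.18% of all genes). Its log2 difference was -0.45 ± 0.22 (SE; edgeR adjusted p = 0.75). Herpud1 stood at 91.2, 62.7 and 137 CPM, against 86.9, 203 and 202 CPM in WT hilar organoids (log2 difference -0.76 ± 0.42, SE; edgeR adjusted p = 0.77). The chaperones Creld2 and Hsp90b1 had log2 differences of -0.50 ± 0.32 and -0.40 ± 0.28 (SE). Both rested on the library of WT mouse 1225, at 87.0 CPM for Creld2 and 1462 CPM for Hsp90b1: without it, the log2 differences were -0.00084 and -0.028. In the other direction, Pdia4 was the only gene of the 36 without overlap (4.57% of all genes), at 336, 321 and 319 CPM in Ndr hilar organoids, against 294, 301 and 279 CPM in WT hilar ones. Within the date, 18 of the 36 genes lay lower in the Ndr culture.

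In peripheral organoids, 29 of the 36 genes had lower estimates in Ndr than in WT cultures (80.6%, against 45.5% of all genes), with a median log2 difference of -0.21, against 0.03 over all genes. edgeR called 0 of the 36 (0.0%), 0 had an unadjusted p under 0.05 (1.47% of all genes for lower, 1.45% for higher), and DESeq2 called 0 (0.046%). The libraries of 6 genes did not overlap and lay lower in Ndr (16.7%, against 3.61% of all genes), namely Hsp90b1, Hyou1, Canx, Pdia4, Ppp1r15a and Wfs1. Some of the gaps were narrow. The nearest Ndr and WT libraries stood at 856.6 and 861.9 CPM for Canx, 24.05 and 24.45 CPM for Ppp1r15a, and 40.9 and 42.6 CPM for Wfs1. Hyou1 stood at 213, 205 and 214 CPM in Ndr peripheral organoids, against 323, 329 and 223 CPM in WT peripheral ones (log2 difference -0.47 ± 0.23, SE; edgeR adjusted p = 1.0). The Ndr libraries lay close together, and WT mouse 1225 lay just above them. Hsp90b1 stood at 686, 752 and 776 CPM, against 912, 1014 and 895 CPM in WT peripheral organoids. Pdia4 stood at 240, 247.5 and 245 CPM, against 293, 299 and 256 CPM in WT peripheral organoids, the reverse of its order in hilar ones. The co-chaperone Dnajc3, which also restrains Eif2ak3, and the sensor Atf6 had log2 differences of -0.36 ± 0.22 and -0.43 ± 0.26 (SE).

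Edem2, which trims mannose ahead of ERAD, was the only gene higher in Ndr without overlap (5.41% of all genes), at 71.9, 71.8 and 96.4 CPM in Ndr peripheral organoids, against 54.6, 45.6 and 60.6 CPM in WT peripheral ones (log2 difference 0.58 ± 0.29, SE; edgeR adjusted p = 1.0). Within the date, 21 of the 36 genes lay lower in the Ndr peripheral culture, with a median log2 difference of -0.03. In that pair Hyou1 differed by -0.06 and Edem2 by 0.67. The proliferation list, 20 genes, summed to 1225 to 2289 CPM in Ndr peripheral and 1043 to 1338 CPM in WT peripheral libraries, and to 422 to 805 CPM in Ndr hilar and 521 to 3180 CPM in WT hilar ones. Its part in these differences was not tested.

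The second comparison sets hilar against peripheral organoids. Over both genotypes, 31 of the 36 genes had higher estimates in hilar cultures and 5 had lower ones (13.9% below 0, against 47.8% of all genes), with a median log2 difference of 0.20, against 0.02 over all genes. All 8 ER chaperones, all 3 transcription factors and all 4 Atf4 targets had estimates above 0, and the 5 below 0 were Canx, P4hb, Edem1, Edem2 and Ern1. None passed the test: edgeR called 0 of the 36 (0.0%) and DESeq2 called 0 (0.0417% of all genes). At an unadjusted p under 0.05, Hspa5, Atf4 and Chac1 were higher in hilar organoids (8.33%, against 2.7% of all genes), and none was lower (3.37%). Cell state lists moved with region as well: all 20 proliferation genes had estimates below 0 (median log2 difference -0.75, 1 of them at an unadjusted p under 0.05), and so had all 15 hypoxia and glycolysis genes (median -0.79, 6 of them at an unadjusted p under 0.05). The cytosolic heat shock list lay the same way as the 36, with 9 of 12 genes above 0 (median 0.22). In WT mice alone the 20 proliferation genes lay above 0 (median 0.44), and in Ndr mice alone below 0 (median -1.89). Of the WT mice, only 1225 had the higher proliferation sum in its hilar culture, at 3180 against 1338 CPM. WT mice 1221 and 1223 ran the other way, at 771 against 1043 CPM and 521 against 1209 CPM. The part of these lists in the region differences of the 36 was not tested.

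Atf4 stood at 285, 141 and 415 CPM in Ndr hilar organoids, against 121, 234 and 134 CPM in Ndr peripheral ones. It stood at 173, 337 and 500.4 CPM in WT hilar organoids, against 134, 256 and 162 CPM in WT peripheral ones. The ranges overlapped in both genotypes. Its log2 difference was 0.83 ± 0.33 (SE; edgeR adjusted p = 0.791), and hilar exceeded peripheral in 5 of 6 mice. Chac1, at 1.83 to 32.3 CPM in hilar and 2.48 to 12.7 CPM in peripheral organoids, had a log2 difference of 1.58 ± 0.66 (SE; edgeR adjusted p = 0.797), also with 5 of 6 mice above 0. Without the Ndr hilar library of mouse 1224, the Chac1 difference was 0.93 ± 0.60 (SE). Hspa5 had a log2 difference of 0.50 ± 0.22 (SE; edgeR adjusted p = 0.814), with 4 of 6 mice above 0, and Derl1, an ERAD channel protein, 0.32 ± 0.15 (SE; edgeR adjusted p = 0.824).

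Atf4, Trib3, Chac1 and Asns were below 0 in 1 mouse each, and for these 4 genes it was the same mouse. In Ndr mouse 1220, hilar minus peripheral was -0.73 for Atf4, -2.47 for Trib3, -1.80 for Chac1 and -1.81 for Asns on the log2 scale. In Ndr mouse 1224, the same genes were at 1.63, 3.27, 2.90 and 1.49, and in WT mouse 1225 at 1.63, 2.08, 2.77 and 1.63. Ppp1r15a, which restores translation, was below 0 in mouse 1220 (-0.43) and in WT mouse 1221 (-0.10), and Ddit3 only in WT mouse 1221 (-0.03). The sensors ran otherwise in mouse 1220, at 0.76 for Ern1, 1.71 for Eif2ak3 and 0.74 for Atf6. The hypoxia and glycolysis list, 15 genes, was lowest in the Ndr hilar library of mouse 1220, at a sum of 2073 CPM in a range of 2073 to 11770 CPM. Its part in the low Atf4 targets of that library was not tested.

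**Figure D4:**
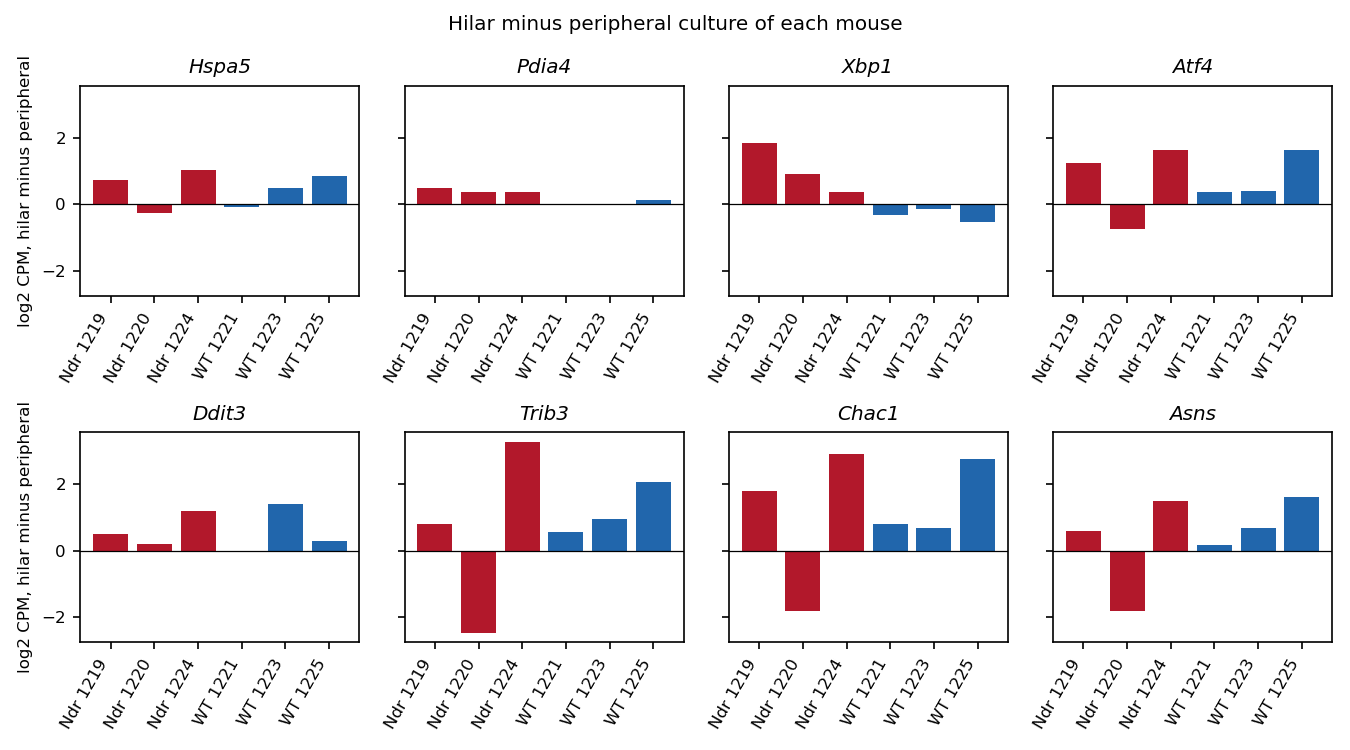
Hilar minus peripheral log2 CPM within each mouse for 8 genes; each bar is 1 mouse, Ndr in red and WT in blue. Pdia4 is above 0 in all 6 mice, Xbp1 is above 0 in the 3 Ndr and below 0 in the 3 WT mice, and Ndr mouse 1220 runs against the others for Atf4, Trib3, Chac1 and Asns.

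In Ndr mice alone, 32 of the 36 genes had higher estimates in hilar organoids (11.1% below 0, against 51.3% of all genes), with a median log2 difference of 0.26. edgeR called 0 of the 36 (0.0%). Pdia4 and Dnajc3 were higher at an unadjusted p under 0.05 (5.56%, against 4.61% of all genes), and none was lower (5.7%). Pdia4 stood at 336, 321 and 319 CPM in Ndr hilar organoids, against 240, 247.5 and 245 CPM in Ndr peripheral ones, with a log2 difference of 0.41 ± 0.16 (SE; edgeR adjusted p = 0.441). DESeq2 called it, with a log2 difference of 0.42 ± 0.11 (SE; DESeq2 adjusted p = 0.0458), and no other of the 36 (2.78%, against 0.47% of all genes). Dnajc3 stood at 164, 226 and 169 CPM in Ndr hilar, against 117, 140 and 138 CPM in Ndr peripheral organoids (log2 difference 0.50 ± 0.22, SE; edgeR adjusted p = 0.475). Dnajb9, another Hspa5 co-chaperone and an Xbp1 target, had a log2 difference of 0.74 ± 0.38 (SE), and Edem1 -0.41 ± 0.22 (SE). Without the Ndr hilar library of mouse 1224, 13 of the 36 were below 0, and without the Ndr peripheral library of mouse 1219, 10 were.

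In WT mice alone, 25 of the 36 genes had higher estimates in hilar organoids (30.6% below 0, against 46.1% of all genes), with a median log2 difference of 0.12. edgeR called 0 of the 36 (0.0%), 0 had an unadjusted p under 0.05 (0.22% of all genes for lower, 0.286% for higher), and DESeq2 called 0 (0.0%). The smallest p belonged to Creld2, at 35.1, 42.5 and 87.0 CPM in WT hilar organoids, against 36.1, 31.3 and 38.8 CPM in WT peripheral ones (log2 difference 0.63 ± 0.32, SE; edgeR adjusted p = 1.0). Without the WT hilar library of mouse 1225, that difference was 0.13. Atf4, Chac1 and Asns followed, with log2 differences of 0.87 ± 0.47, 1.52 ± 0.92 and 0.96 ± 0.60 (SE), each above 0 in all 3 WT mice. Without the same library they were 0.48, 0.94 and 0.61.

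Mouse by mouse, Pdia4 was the only gene of the 36 genes higher in the hilar culture of all 6 mice (1.12% of all genes), and none was lower in all 6 (1.37%). Its hilar minus peripheral differences were 0.48, 0.38 and 0.38 in Ndr mice, against 0.01, 0.01 and 0.12 in WT mice, on the log2 scale.

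The interaction asks whether the hilar minus peripheral difference depends on genotype. edgeR called 0 of the 36 (0.0%), 0 had an unadjusted p under 0.05 (1.92% of all genes for lower, 1.09% for higher), and DESeq2 called 0 (0.0141%). Estimates were below 0 for 14 of the 36 (38.9%, against 53.9% of all genes). Dnajc3 had an interaction of 0.57 ± 0.31, Xbp1 of 1.18 ± 0.70, Pdia4 of 0.37 ± 0.23 and Edem2 of -0.62 ± 0.42 on the log2 scale (SE; edgeR adjusted p = 0.994 for each). Xbp1 stood at 713, 700.3 and 773 CPM in Ndr hilar organoids, against 198, 372 and 602 CPM in Ndr peripheral ones. It stood at 754.5, 680 and 244 CPM in WT hilar organoids, against 934, 748 and 351 CPM in WT peripheral ones. Xbp1 was thus the only gene of the 36 higher in the hilar culture of every Ndr mouse and lower in that of every WT mouse (0.733% of all genes), and none showed the opposite pattern (0.579%).

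A wider set of 127 genes of the same pathway was tested in 5 lists: other folding and glycosylation genes, translocation and export, ERAD, sensors and regulators, and Atf4 and stress targets. In the mouse totals, 87 of the 127 had estimates below 0, where 50.7% of all genes did, with a median log2 difference of -0.09. At an unadjusted p under 0.05, 5 of the 127 were lower in Ndr mice, where 2.93% of all genes were, and 1 was higher, where 2.49% were. edgeR called none. Vcp, the ATPase that pulls proteins out of the ER for degradation, had a log2 difference of -0.34 ± 0.11 (SE; edgeR adjusted p = 0.869), and Nars, which charges the asparagine tRNA, -0.52 ± 0.19 (SE; edgeR adjusted p = 0.876). Gdf15, a secreted stress hormone, was the 1 higher gene, at 0.94 ± 0.35 (SE; edgeR adjusted p = 0.888). In peripheral organoids it differed by 1.77 ± 0.51 (SE; edgeR adjusted p = 1.0), at 33.7 ± 18.6 CPM in Ndr and 9.87 ± 2.61 CPM in WT (SD). In hilar organoids the order was the reverse, 11.5 ± 5.86 CPM in Ndr and 15.6 ± 3.24 CPM in WT (SD). Its interaction was -2.205 ± 0.71 (SE; edgeR adjusted p = 0.994). No value within the date is given for Vcp, Nars or Gdf15. Of the 35 Atf4 and stress targets tested, 27 were below 0 in the mouse totals and 28 above 0 in hilar against peripheral organoids. Gadd45a, which responds to DNA damage and to stress, had a hilar minus peripheral log2 difference of 0.60 ± 0.18, and Ero1a, which reoxidizes disulfide isomerases and also responds to low oxygen, -1.11 ± 0.47 (SE; edgeR adjusted p = 0.786 and 0.797).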

How the data were processed

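RNA from 12 organoid cultures was sequenced. The authors deposited raw read counts per gene; per the submitters' processing notes, featureCounts was the counting tool and GRCm39 the build. The aligner, annotation and strand setting were not given in the sources used here, so overlapping genes are uncertain. Ddit3 has a second, nested identifier with no counts. The authors also deposited normalized values (signal), and DESeq2 1.34.0 is named in the submitters' processing notes. Each value of that signal table was a whole multiple of its column's smallest (100.0% within a tolerance of 0.01), but the whole numbers equalled the raw counts in 43.1% of cells. Relative to the column median, the ratio to raw counts ran from 0.623 (lowest 5th percentile) to 1.53 (highest 95th percentile) over 9768 genes. The values had therefore been changed gene by gene, by a step that no header or label records. The median SD of log2 values between Ndr mice was 0.0316 in that table and 0.184 in the raw counts; between WT mice it was 0.149 and 0.207. Main results use the raw counts.

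Tests on counts used edgeR 4.0.16 under R 4.3.3, with a robust quasi-likelihood F test after filterByExpr and TMM and Benjamini-Hochberg adjustment over all genes tested. There were 8 residual degrees of freedom for 12 libraries and 4 for 6 mouse totals. CPM on the log2 scale used a prior count of 2 for the means over genes and for the hilar minus peripheral differences of each mouse. The same held for the differences within the date in hilar and in peripheral organoids. A prior count makes differences between low counts smaller. An exact permutation test of 3 against 3 mice cannot give a two-sided p under 0.1. DESeq2 1.42.0, limma 3.58.1 (voom, and trend on log2 of signal plus 1), DESeq2 size factors, no filter, derivation date as a factor, a mouse block and leaving out each library were alternatives. Scripts were tested on simulated data. Hilar and peripheral cultures with the same number come from the same mouse, so the numbers pair them; their deviations from group means correlated across genes at -0.34 to 0.45.

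Genes named were Hspa5, Xbp1, Atf4, Ddit3 and the 8 members with the smallest p in the mouse totals, the 4 with the smallest p in every other comparison, and of other pathway genes the 2 with the smallest p in each direction, from which examples are given. Members named for level, spread, no overlap between groups or behaviour in 1 mouse were chosen after their values were seen. The members and lists were chosen with earlier results of these data known. Promoters are RefSeq sequences; protein sequences were not used here.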

Additional observations from a re-analysis of the deposited data

Results flagged for a closer look

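Xbp1 drew attention because its hilar minus peripheral difference ran one way in every Ndr mouse and the other way in every WT mouse. The log2 differences were 1.85, 0.91 and 0.36 in Ndr mice 1219, 1220 and 1224, against -0.31, -0.14 and -0.52 in WT mice 1221, 1223 and 1225. The interaction was 1.18 on the log2 scale with an SE of 0.70, and the edgeR adjusted p was 0.994, so the test of the difference itself did not pass. Of all genes, 0.733% showed the same pattern of signs.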

How the results depend on the processing

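With date as a factor, the genotype effect in the mouse totals rests on mice 1224 and 1225 with 1 residual degree of freedom, so date and the choice of 1 mouse per genotype cannot be told apart: 18 of the 36 genes were below 0, the median log2 difference was -0.0030, and 7 genes were called, none of the 36. The sign turned for Hyou1 (0.047), Herpud1 (0.013), Sec61a1 (0.034), Ern1 (0.35), Xbp1 (1.14) and Ddit3 (0.072). In hilar and in peripheral organoids, 17 of the 36 were then below 0, and Atf6 in peripheral ones was at 0.10.

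The fit on the deposited normalized table is not used as evidence on genotype, because the gene by gene change in that table had narrowed the spread between mice that the test relies on. The median SD of log2 values was 0.0316 there and 0.184 in the raw counts between Ndr mice, and 0.149 and 0.207 between WT mice. In the mouse totals it called 7215 genes, 15 of the 36 among them, although the median log2 difference of the 36 was 0.032, with 17 below 0. Signs turned for Hyou1 (0.092), Sec61a1 (0.054), Ern1 (0.33), Xbp1 (1.18) and Ddit3 (0.20). It called 1446 genes in hilar organoids, 2 of the 36 among them, and 93 in peripheral ones, with 18 of the 36 below 0 and Atf6 at 0.047. For region it called 9 genes in Ndr mice and 4 over both genotypes, and 2 for the interaction, none of the 36.

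DESeq2 called 126 genes in the mouse totals, 45 in hilar and 9 in peripheral organoids, 79 for region in Ndr mice (1 of the 36, Pdia4), 7 for region over both genotypes and 4 for the interaction; the cause was not tested. Without the filter, 5 genes were called in the mouse totals, none of the 36.

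Leaving out 1 mouse or library gave 0 to 4 called genes in the mouse totals, 0 to 2 in peripheral organoids and 0 to 7 for region in Ndr mice, and none of the 36. The highest count came without mouse 1219 in the mouse totals. In peripheral organoids and for region in Ndr mice, it came without the Ndr peripheral library of mouse 1219. Xbp1 in the mouse totals ran from -0.53 (without WT 1225) to 0.085 (without WT 1221). The count below 0 ran from 27 to 32 in the mouse totals, 16 to 28 in hilar and 26 to 32 in peripheral organoids. For region it ran from 4 to 13 in Ndr mice, 8 to 16 in WT mice and 4 to 9 over both genotypes, where it was 9 without Ndr hilar 1224 and 8 without WT hilar 1225. For the interaction it ran from 9 without WT hilar 1225 to 23 without WT hilar 1221. These counts below 0 were added after seeing the data.

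With the mouse as a replicate block, the median log2 difference for region over both genotypes was 0.20, with 6 of the 36 below 0, and the block changed no call among the 36. Depth limited Derl3 most, since its libraries held 1 to 33 reads.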
